A study of Mus musculus with 2 samples.

Results

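The insulin-like growth factors, their receptor and their binding proteins were followed through single liver cells. The set was fixed by gene family and not by a measured value, and its 10 members (Igf1, Igf2, Igf1r and Igfbp1 to Igfbp7) were all found by Ensembl identifier among the 30406 genes listed for both libraries. Liver cells were counted by droplet sequencing (10x Genomics, 3′ chemistry). Per the study's methods, the digested livers first went through a Nycodenz density gradient. The shares below therefore describe the captured cells and not the liver, and how this step changed the mix of cells was not tested. There was 1 library of healthy mice and 1 of mice injured with carbon tetrachloride (CCl4), a toxin that hepatocytes turn into a reactive product. Both groups carried Col1a2CreER:Rosa26tdTomato, in which a tamoxifen-activated Cre under the Col1a2 promoter switches on a red reporter, on a C57BL/6 background, and per the study's methods the mice were 8 to 10 weeks old, the CCl4 group was injected 2 times a week for 12 weeks, and cells positive for CD45, the common leukocyte antigen encoded by Ptprc, were depleted with magnetic beads. How many mice went into each library is not given in the sources used here, so no difference below has a replicate check, and the intervals in brackets are 95% intervals that cover counting error only.

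IGF1 and IGF2 are small secreted hormones related to insulin that act through the IGF1 receptor, a tyrosine kinase. In the blood most IGF1 comes from hepatocytes, which make it under growth hormone, while the hepatocytes themselves carry little of the receptor. The binding proteins hold the ligands in plasma and tissue, lengthen their life or keep them from the receptor, and are cut by proteases such as pappalysin. IGFBP7 binds IGFs weakly and is better known as a protein of vessels and activated mesenchyme.

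A unique molecular identifier (UMI) tags a single captured RNA molecule, and the deposited counts held 51122846 of them in 6297 healthy cells and 97611831 in 8460 CCl4 cells. Filtering kept 5602 healthy cells, with a median depth of 6798.5 UMIs, and 7314 CCl4 cells, with a median of 11893.5, and the libraries shared 10 cell barcodes. Clusters were formed without any gene of the IGF family or pathway, and named "X-like" from marker genes. The 2 libraries were made of different cells. The healthy library held 3562 endothelial-like (63.6%), 1239 cholangiocyte-like (22.1%), 323 hepatocyte-like (5.77%), 232 mesothelial-like (4.14%) and only 23 mesenchymal-like cells (0.411%), whereas the CCl4 library held 3825 mesenchymal-like (52.3%), 892 mesothelial-like (12.2%), 651 endothelial-like (8.90%), 66 neutrophil-like, 108 lymphoid (T and NK cell-like), 202 macrophage and monocyte-like and 329 hepatocyte-like cells (4.50%). Every class with at least 20 cells had a UMI of each of its listed markers, and Ptprc was at 0 UMIs in the 5 healthy classes. Most endothelial-like cells lay in clusters 0 to 3 in the healthy and in cluster 7 in the CCl4 library, and most mesothelial-like cells in clusters 8 and 18, so that these classes were held by different clusters in the 2 libraries. Hepatocyte-like cells lay in clusters 4 and 5 in the healthy library but nearly all (321 of 329) in cluster 5 in the CCl4 library, and mesenchymal-like cells lay in clusters 9 to 11 in both. Cluster 5 was shallow, with a median of 1257 UMIs per cell in the healthy and 882 in the CCl4 library, and whether its droplets held whole hepatocytes or hepatocyte debris was not tested, which applies to every hepatocyte-like level of the CCl4 library below. The library, the injury, any difference in age at cell isolation and the mix of cells captured cannot be told apart. Levels are given as CPM, the UMIs of a gene scaled to 1000000 UMIs of the class.

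**Figure D1:**
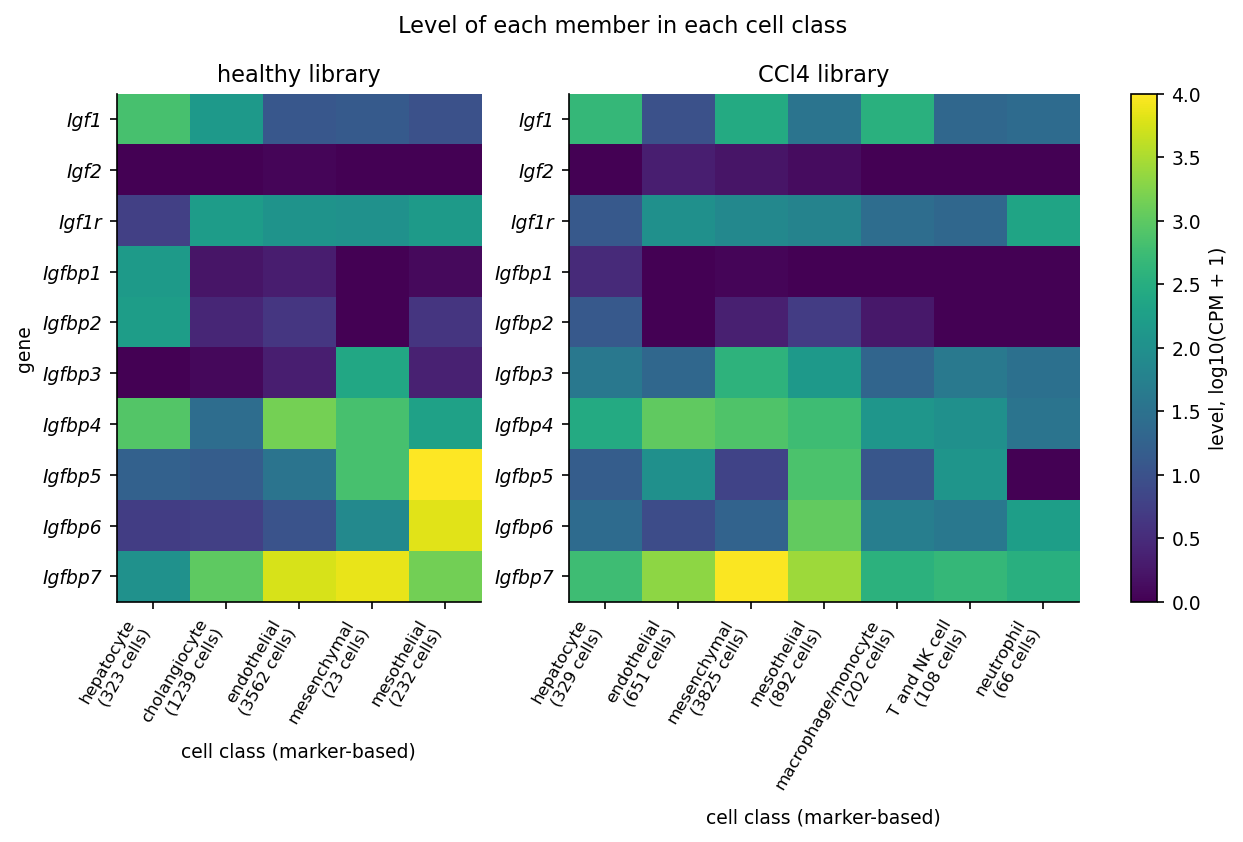
Level of each member (rows) in each named cell class with at least 20 cells (columns) of the healthy library (left) and the CCl4 library (right), as log10 of CPM plus 1. In the healthy library Igfbp5 and Igfbp6 were bright in mesothelial-like cells and Igfbp1 and Igfbp2 in hepatocyte-like cells, while Igf2 was dark in every class of both libraries.

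Igf1 (ENSMUSG00000020053), the ligand that mediates growth hormone action, was read from different cells in the 2 libraries. Of its 4845 healthy UMIs, 39.0% [37.7, 40.4] lay in hepatocyte-like cells, which were 5.77% of the cells, and 52.2% [50.7, 53.6] in cholangiocyte-like cells, which came second by level. Its level was 687 CPM [656, 718] in hepatocyte-like, 142 [136, 147] in cholangiocyte-like and between 8.69 and 12.4 in mesothelial-like, endothelial-like and mesenchymal-like cells, whose intervals overlapped. Free RNA from broken hepatocytes reaches other droplets, so a panel of 8 hepatocyte genes (Alb, Apoa1, Apoa2, Ttr, Fga, Fgb, Serpina3k and Hpx) was counted beside each member. In endothelial-like cells the panel came to 8.42 UMIs per cell and Igf1 to 235 UMIs. At the hepatocyte-like ratio the panel would bring 260, and the origin of the endothelial-like UMIs was not tested. In cholangiocyte-like cells the panel came to 111 UMIs per cell and would bring 1198 UMIs of Igf1, where 2527 were counted. The same panel would bring 260 UMIs of Igfbp1 and 297 of Igfbp2 to the cholangiocyte-like cells, where 12 and 30 were counted. A UMI of Igf1 was found in 69.7% [67.1, 72.3] of cholangiocyte-like cells (median 11749 UMIs) and in 6.09% [5.33, 6.93] of endothelial-like cells (median 5945.5 UMIs), or in 22.9% and 2.21% after thinning each cell to 2000 UMIs.

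Of the 16284 Igf1 UMIs of the CCl4 library, 73.9% [73.2, 74.6] lay in mesenchymal-like cells, which were 52.3% of the cells, and 1.39% in hepatocyte-like cells. By level the order was hepatocyte-like (460 CPM [402, 524]), macrophage and monocyte-like (344 [312, 379]) and mesenchymal-like (276 [271, 281]), whose intervals did not overlap, and then mesothelial-like cells at 33.1. Macrophage and monocyte-like cells, led by the Kupffer cell genes Cd5l and Clec4f, gave 410 Igf1 UMIs in 37.6% of the cells, where a mesenchymal panel of 5 genes (Col1a1, Col1a2, Col3a1, Dcn and Lum) would bring 13.8 UMIs as free RNA. In T and NK cell-like cells 10 Igf1 UMIs were counted and the same panel would bring 10.0. Within the mesenchymal-like class the level differed between its clusters. A cluster of 1313 cells led by Dpep1, Thbs4 and Mfap4 (cluster 10) stood at 439 CPM [430, 449] with a UMI in 92.5% of cells, and a cluster of 1630 cells led by the stellate cell genes Bco1, Colec10, Lrat and Rgs5 (cluster 11), in which all 13 listed stellate markers were enriched, stood at 156 [151, 161] with a UMI in 63.9%. An unnamed cluster of 630 cells led by Serpinb2 and Enpp2 (cluster 20), with as many mesothelial as portal fibroblast markers, gave 13.3% of the Igf1 UMIs at 168 CPM [161, 176].

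Igf2 (ENSMUSG00000048583), the fetal growth factor, was near absent. It had 3 UMIs in the healthy library, all in endothelial-like cells, and 42 in the CCl4 library, of which 30 lay in mesenchymal-like cells at 0.689 CPM. No class stood above 1.15 CPM. In hepatocyte-like cells 0 UMIs were counted in both libraries.

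Igf1r (ENSMUSG00000005533), the receptor for both ligands, was lowest in the healthy library in hepatocyte-like cells, the class with the highest Igf1 level. Its level there was 163 CPM [157, 169] in cholangiocyte-like and 148 [136, 161] in mesothelial-like cells, which overlapped, then 113 [109, 118] in endothelial-like and 105 [61.3, 169] in mesenchymal-like cells, which also overlapped, and 4.72 [2.51, 8.07] in hepatocyte-like cells. Only 2.17% of hepatocyte-like cells held a UMI of it, against 42.0% of endothelial-like cells. The order in the CCl4 library was neutrophil-like (213 CPM [156, 285], 45 UMIs in 66 cells), endothelial-like (100 [90.9, 110]), mesenchymal-like (73.4), mesothelial-like (60.5), macrophage and monocyte-like (26.0), lymphoid (T and NK cell-like, 20.4) and hepatocyte-like cells (12.2 [4.47, 26.5]), of which the last 3 did not differ beyond their intervals. The mesenchymal panel would bring 0.7 Igf1r UMIs to the neutrophil-like cells.

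**Figure D2:**
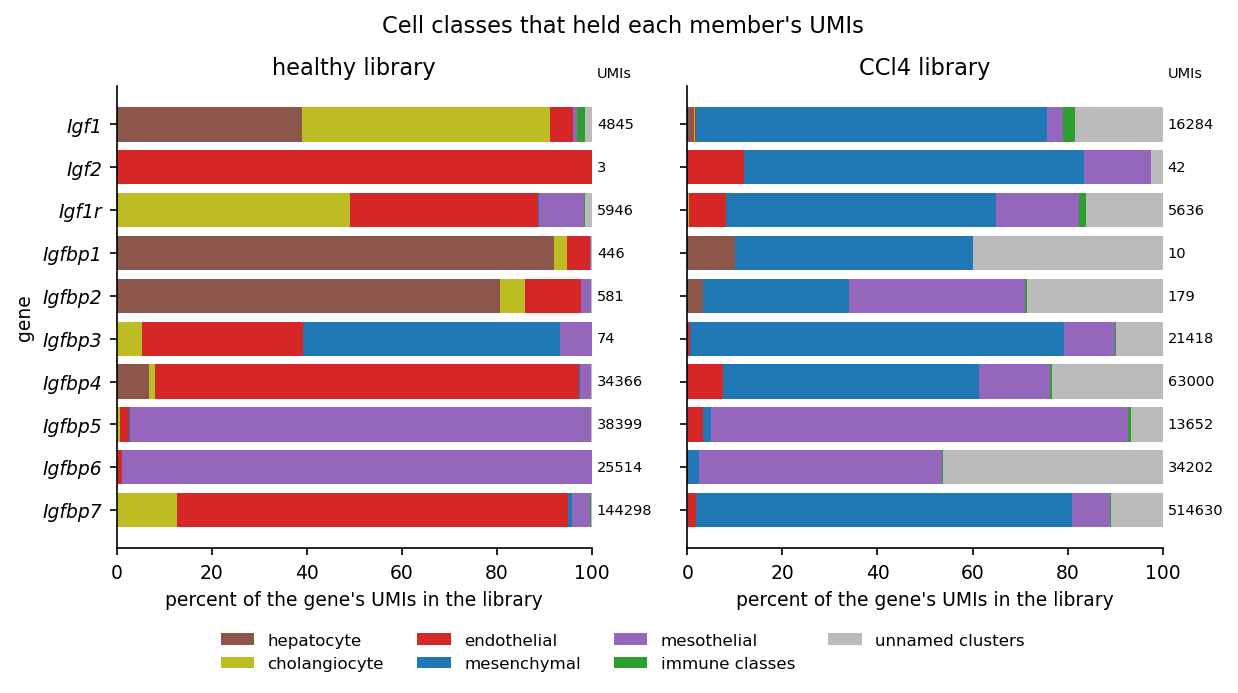
Share of each member's UMIs (horizontal axis, percent) that came from each cell class in the healthy (left) and CCl4 (right) library, with the number of UMIs at the end of each bar. Mesenchymal-like cells gave most UMIs of Igf1, Igfbp3, Igfbp4 and Igfbp7 in the CCl4 library, whereas endothelial-like cells gave 89.1% of Igfbp4 and 82.1% of Igfbp7 in the healthy library.

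Some binding protein genes lie as neighbours in pairs, with 0 other annotated genes between them in RefSeq, Igfbp1 beside Igfbp3 on chromosome 11 and Igfbp2 beside Igfbp5 on chromosome 1, and in the healthy library the first of each pair was read mainly from hepatocyte-like cells and the second mainly from other classes. The 250 bases before an annotated transcript start of each are shown for that reason, 5′ to 3′ on the gene's strand, from RefSeq on GRCm38.p6 (chr11:7197537-7197786 on the plus strand, chr11:7213924-7214173 on the minus strand, chr1:72824230-72824479 on the plus strand and chr1:72874866-72875115 on the minus strand). The Igfbp3 window is the one the RefSeq table holds, and it belongs to a start inside the annotated gene (chr11:7206086-7215498), whose outer end lies farther upstream. The genome build of the count files is not stated in them. Capitals mark every match, on either strand, to TATAAA, the usual TATA-box core, GGGCGG, the Sp1 box, TGTTTTG and TATTTTG, both known from the insulin response element of the Igfbp1 promoter, and GTTAAT, one side of the HNF1 motif, and no matches overlap.
Igfbp1: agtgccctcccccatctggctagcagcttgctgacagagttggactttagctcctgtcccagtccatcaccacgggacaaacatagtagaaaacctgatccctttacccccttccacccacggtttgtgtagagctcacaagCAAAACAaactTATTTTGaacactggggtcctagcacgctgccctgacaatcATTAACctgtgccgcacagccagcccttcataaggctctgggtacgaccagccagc
Igfbp3: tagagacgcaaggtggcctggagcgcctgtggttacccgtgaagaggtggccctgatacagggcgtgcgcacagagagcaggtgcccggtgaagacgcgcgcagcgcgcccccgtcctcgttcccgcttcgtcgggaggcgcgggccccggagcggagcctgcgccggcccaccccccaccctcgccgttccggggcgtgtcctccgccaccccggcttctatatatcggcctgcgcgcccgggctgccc
Igfbp2: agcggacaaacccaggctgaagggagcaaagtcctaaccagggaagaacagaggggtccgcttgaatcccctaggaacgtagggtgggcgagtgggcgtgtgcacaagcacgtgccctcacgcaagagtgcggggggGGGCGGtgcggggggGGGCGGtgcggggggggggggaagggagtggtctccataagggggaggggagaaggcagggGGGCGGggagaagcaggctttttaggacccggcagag
Igfbp5: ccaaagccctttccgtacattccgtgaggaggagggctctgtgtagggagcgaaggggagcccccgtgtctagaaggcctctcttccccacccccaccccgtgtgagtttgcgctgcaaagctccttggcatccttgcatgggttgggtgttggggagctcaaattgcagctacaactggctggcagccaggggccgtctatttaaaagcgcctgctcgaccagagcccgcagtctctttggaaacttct
The Igfbp1 window held 3 matches, TGTTTTG on the minus strand 108 bases before the start, TATTTTG at 97 and GTTAAT on the minus strand at 56. The Igfbp2 window held GGGCGG 3 times, at 113, 98 and 37 bases before the start, and the Igfbp3 and Igfbp5 windows held 0 matches. Among all 32851 windows of this length, TGTTTTG was in 5.56%, TATTTTG in 3.95%, GTTAAT in 6.43%, GGGCGG in 32.7% and TATAAA in 12.4%, so that the letters alone are common, and a match is not a measured site.

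Igfbp1 (ENSMUSG00000020429), which insulin represses in hepatocytes, had 446 healthy UMIs and 10 in the CCl4 library. Of the healthy UMIs 410 (91.9% [89.0, 94.3]) lay in hepatocyte-like cells, at 149 CPM [135, 164] and in 16.4% of the cells, and all 410 were in cluster 4, which was led by the hepatocyte genes Mup11, Cyp3a11 and Cps1. The other hepatocyte-like cluster, the shallow cluster 5, held 0 in both libraries. The endothelial-like cells held 22, where the hepatocyte panel would bring 56.4. Igfbp2 (ENSMUSG00000039323), a binding protein of plasma, was read mainly from hepatocyte-like cells too, with 469 of 581 healthy UMIs (80.7% [77.3, 83.9]) at 170 CPM [155, 186] and in 34.4% of the cells. It had 179 UMIs in the CCl4 library, led by level by hepatocyte-like cells with 6 UMIs (12.2 CPM [4.47, 26.5]), whose interval overlapped that of mesothelial-like cells (4.06 [3.14, 5.16]).

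Igfbp3 (ENSMUSG00000020427), which carries most IGF1 in plasma together with the acid-labile subunit, was scarce in the healthy library, with 74 UMIs in all, of which 40 came from the 23 mesenchymal-like cells (248 CPM [177, 337], in 21.7% of them) and 18 from the 213 cells of the large-vessel endothelial cluster (cluster 2, led by Ccl21a, Vwf and Mmrn1). Hepatocyte-like cells had 0 UMIs in 323 cells, which allows a level up to 1.34 CPM. With CCl4 it had 21418 UMIs, 78.7% [78.2, 79.3] of them in mesenchymal-like cells (387 CPM [381, 393]) and 10.7% in mesothelial-like cells (141 [135, 147]). The stellate cluster was highest among the mesenchymal-like clusters, at 572 CPM [563, 582] with a UMI in 90.6% of cells, against 155 [150, 161] and 40.1% in the Dpep1-led cluster, which is the reverse of the order for Igf1. The 329 hepatocyte-like cells of the CCl4 library held 19 Igfbp3 UMIs, in 5.47% [3.27, 8.51] of cells, and the mesenchymal panel would bring 16.4. Macrophage and monocyte-like cells held a UMI of Igfbp3 in 5.45% of cells at a greater depth (median 4715.5 UMIs, against 893 in hepatocyte-like cells). By level the hepatocyte-like cells stood at 38.5 CPM [23.2, 60.2] and the macrophage and monocyte-like cells at 19.3 [12.2, 29.0], whose intervals overlapped.

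Igfbp4 (ENSMUSG00000017493), which mostly restrains IGF action until it is cut by pappalysin, was an endothelial-like transcript in the healthy library, with 89.1% [88.7, 89.4] of 34366 UMIs at 1472 CPM [1456, 1489] and a UMI in 92.6% of cells. It stood between 1353 and 1653 CPM in each of the 4 main endothelial-like clusters, large-vessel cells included. Hepatocyte-like cells followed at 847 CPM [813, 882] and mesenchymal-like cells at 675 [554, 814], whose intervals overlapped, and cholangiocyte-like cells were lowest at 25.7. Endothelial-like cells still led by level in the CCl4 library (1067 CPM [1037, 1098]) but gave 7.38% of 63000 UMIs, and mesenchymal-like cells gave 53.7% at 777 [769, 786]. Its order among the mesenchymal-like clusters was that of Igf1, with 1446.5 CPM [1429, 1464] in the Dpep1-led and 271 [264, 278] in the stellate cluster.

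Igfbp5 (ENSMUSG00000026185) and Igfbp6 (ENSMUSG00000023046), the latter known for its preference for IGF2, were mesothelial-like transcripts. The 232 healthy mesothelial-like cells, 4.14% of the library, held 97.0% [96.8, 97.1] of 38399 Igfbp5 UMIs and 98.7% [98.6, 98.9] of 25514 Igfbp6 UMIs. All 232 cells held a UMI of both genes, with a median of 130 UMIs per cell for Igfbp5 (quartiles 57 and 237) and 99 for Igfbp6 (quartiles 66.8 and 142). The Igfbp5 level was 9809 CPM [9710, 9910] in these cells, 694 [571, 835] in the 23 mesenchymal-like cells and 194 [174, 215] in the large-vessel endothelial cluster, against 12.5 to 45.8 in the other 3 main endothelial-like clusters. Igfbp6 stood at 6637 CPM [6555, 6719] in mesothelial-like and at 74.3 or less in the other healthy classes.

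In the CCl4 library mesothelial-like cells again held most Igfbp5 (87.7% of 13652 UMIs) and Igfbp6 (51.1% of 34202 UMIs). The unnamed Serpinb2-led cluster held a further 39.7% of the Igfbp6 UMIs at 1055 CPM [1037, 1073], which overlapped the mesothelial-like level of 1074 [1058, 1090], but only 3.96% of the Igfbp5 UMIs at 41.9. Neutrophil-like cells held 36 Igfbp6 UMIs in 25.8% of cells, at 171 CPM [119, 236], above the 50.4 [38.5, 64.9] of macrophage and monocyte-like cells. No panel was counted for the mesothelial-like and Serpinb2-led cells that held most of this transcript, so the part of free RNA in these levels was not tested. The 60 Igfbp5 UMIs of the T and NK cell-like cells lay in 3.70% of the cells.

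**Figure D3:**
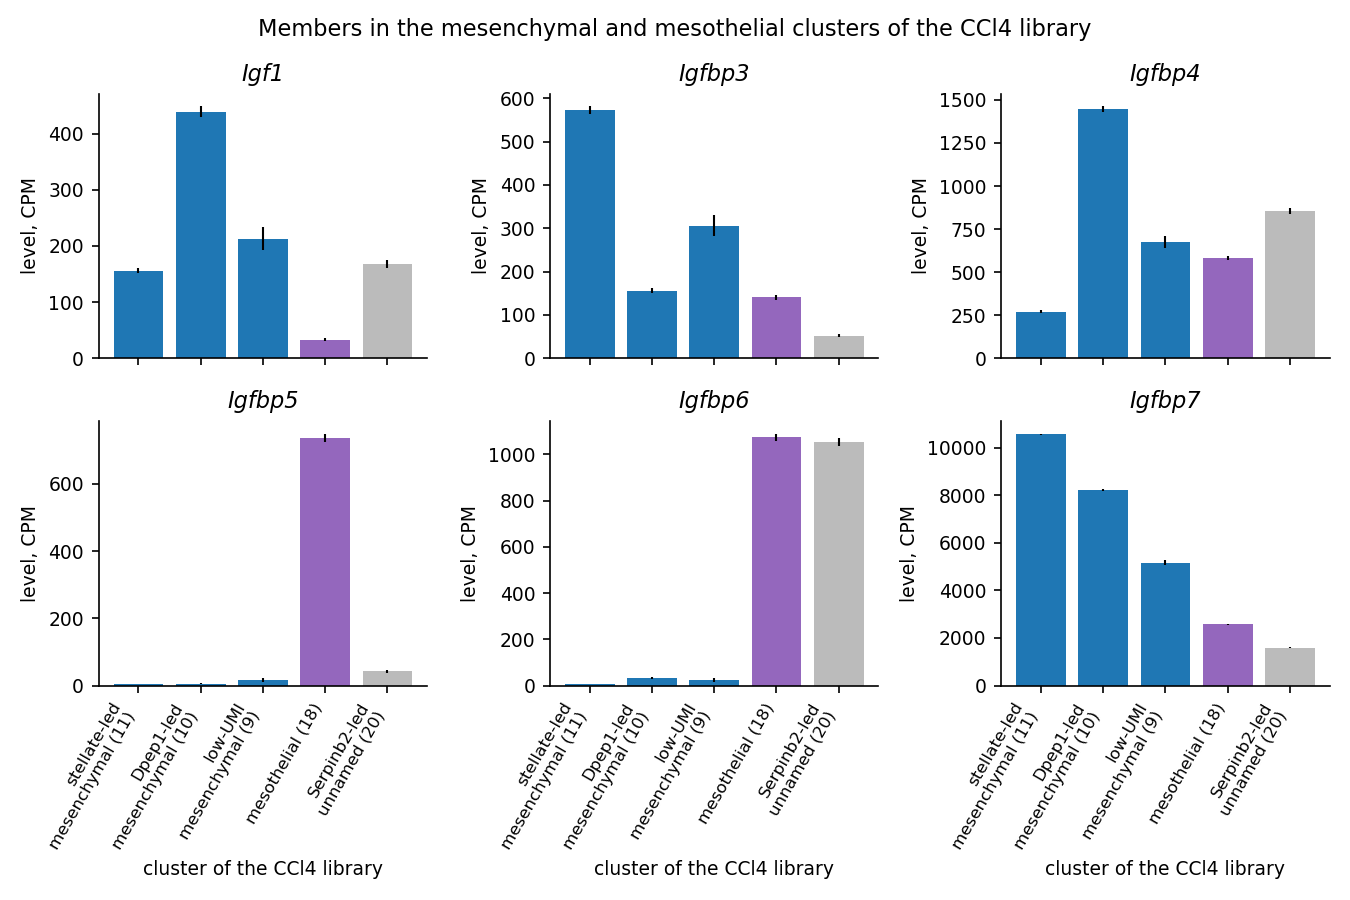
Level in CPM (bars from 0, with 95% Poisson intervals) of 6 members in the 3 mesenchymal-like clusters, the mesothelial-like cluster and the unnamed Serpinb2-led cluster of the CCl4 library. Igf1 and Igfbp4 were highest in the Dpep1-led cluster and Igfbp3 and Igfbp7 in the stellate cluster, and Igfbp6 stood at 1055 and 1074 CPM in the last 2.

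Igfbp7 (ENSMUSG00000036256) was found in nearly every vascular and mesenchymal cell. In the healthy library endothelial-like cells gave 82.1% [81.9, 82.3] of 144298 UMIs at 5698 CPM [5665, 5730], with a median of 34 UMIs per cell, and the 23 mesenchymal-like cells stood at 7350.4 [6938, 7781]. That lead rests on the 23 cells, and endothelial-like cells came first in 4 of 7 other ways of filtering or clustering, of which 2 left fewer than 20 healthy mesenchymal-like cells. The large-vessel cluster stood at 1568 CPM [1511, 1627], below the 4929 to 7037 of the other 3 main endothelial-like clusters, which is the reverse of Igfbp5. Healthy mesothelial-like cells stood at 1430 CPM [1392, 1469] and cholangiocyte-like cells at 1019 [1004, 1034]. With CCl4, 79.0% [78.9, 79.1] of 514630 UMIs came from mesenchymal-like cells at 9334 CPM [9305, 9362] and a median of 109 UMIs per cell, with 10556 [10514, 10597] in the stellate cluster. Mesothelial-like cells came next by level at 2578 CPM [2554, 2603], above endothelial-like cells at 2080 [2037, 2123]. A UMI of Igfbp7 was also found in 60.6% to 65.3% of neutrophil-like, T and NK cell-like and macrophage and monocyte-like cells and in 54.1% of hepatocyte-like cells. The counts there (69, 223, 442 and 280 UMIs) were below those the mesenchymal panel would bring (87.5, 339, 467 and 395), and the origin of these UMIs was not tested.

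Levels were then set side by side between the libraries in the 4 classes with at least 20 cells in both, for genes with at least 20 UMIs over both libraries and a level above that of 3 counts in the shallower one. A gene counted as higher or lower when its CPM ratio, CCl4 over healthy, was at least 2-fold away from 1. In mesothelial-like cells 8 members could be set side by side, of which 3 were higher and 3 lower, against 12.9% higher and 12.5% lower of all 12456 genes. Igfbp5 went from 9809 to 736 CPM, 13.3-fold lower (ratio 0.0751 [0.0735, 0.0766]), and Igfbp6 from 6637 to 1074 CPM, 6.18-fold lower (ratio 0.162 [0.159, 0.165]). Per cell, the median fell from 130 to 3 UMIs for Igfbp5 and from 99 to 13 for Igfbp6, although the median depth of the cells was similar (18282 and 17410 UMIs). Igf1r went from 148 to 60.5 CPM, 2.45-fold lower. Igfbp3 was 107-fold higher [45.8, 330], from 5 UMIs in 232 cells to 2293 UMIs in 892 cells, and a UMI of it was found in 1.29% of healthy and 60.9% of CCl4 mesothelial-like cells. Igfbp4 was 2.95-fold [2.74, 3.18] and Igf1 3.80-fold [2.68, 5.58] higher. Mesothelial-like CCl4 cells held 102 UMIs of the mesenchymal panel per cell, against 4.19 in endothelial-like cells. At the mesenchymal-like ratio this panel would bring 1523 of the 2293 Igfbp3 UMIs and 3059 of the 9461 Igfbp4 UMIs. It would bring 1087 of Igf1, where 538 were counted. Mesenchymal markers, the panel's genes among them, summed to 8304 CPM in healthy and 6371 in CCl4 mesothelial-like cells. How much of the panel these cells made themselves was not tested. Igfbp7 (ratio 1.80) and Igfbp2 (1.28) stayed within 2-fold. The same panel would bring 36738 of the 41935 Igfbp7 UMIs. The Igfbp7 ratio was 0.224 after panel background was subtracted, and 2.002 when CPM was scaled without the 50 most abundant genes. That subtraction used the hepatocyte panel in the healthy and the mesenchymal panel in the CCl4 library, so the libraries were not treated alike. The other 6 calls held when the unnamed Serpinb2-led cluster was added to the class, with Igf1 then 10.7-fold higher and Igfbp5 at a ratio of 0.0438. The 13 mesothelial markers were all counted in both libraries, at a sum of 11433 CPM in healthy and 5238 in CCl4 cells, and their part in the result was not tested.

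**Figure D4:**
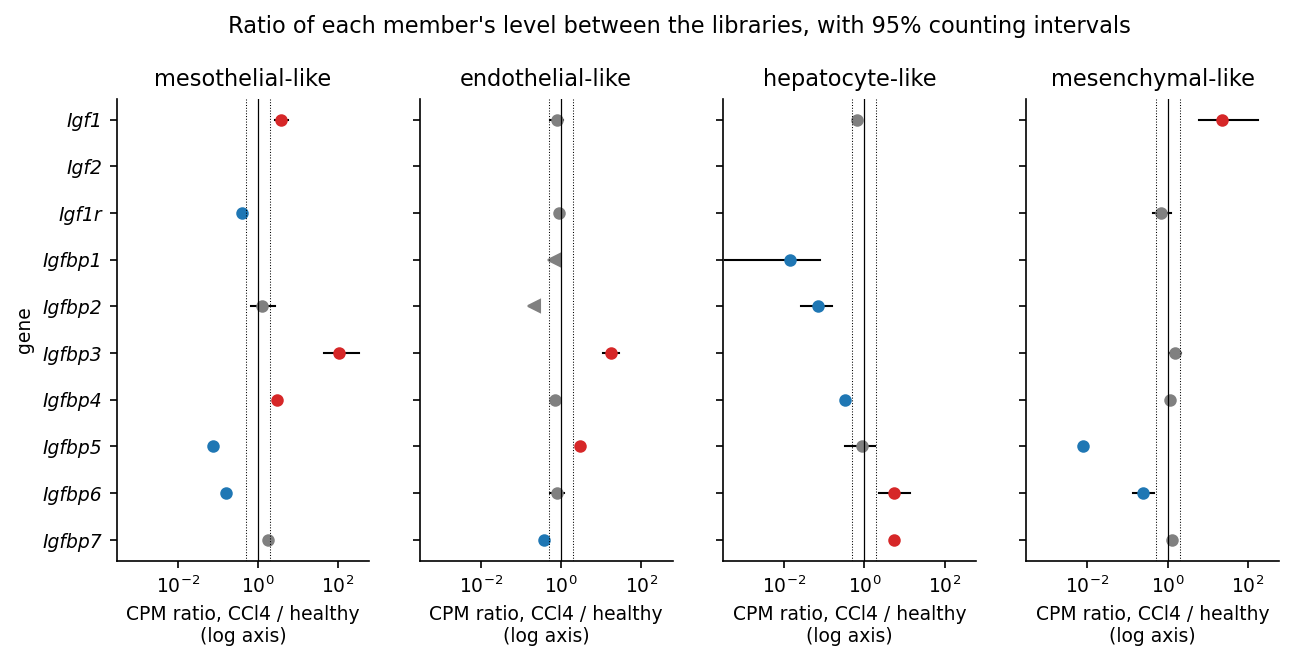
Ratio of CPM, CCl4 over healthy (log axis), of each member in 4 classes, with 95% counting intervals. Red and blue points are at least 2-fold higher or lower, and dotted lines mark 2-fold. Grey triangles give the ratio with a CCl4 count of 0 set to 3 counts, and members with too few UMIs have no point. Among mesothelial-like cells Igfbp3 lay at 107 and Igfbp5 at 0.0751, while in endothelial-like cells Igfbp5 lay at 2.98.

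In endothelial-like cells 9 members could be set side by side, of which 2 were higher and 2 lower, against 5.91% and 18.9% of 12412 genes. Igfbp7 went from 5698 to 2079.6 CPM, 2.74-fold lower (ratio 0.365 [0.357, 0.373]), and from a median of 34 to 11 UMIs per cell. Igfbp2 went from 69 UMIs to 0, which was 4.82-fold lower with the 0 set to 3 counts (ratio interval [0, 0.262]). Free RNA from hepatocytes would bring 64.5 UMIs to the healthy cells, and the origin of the 69 was not tested. Igfbp5 was 2.98-fold [2.64, 3.36] and Igfbp3 17.4-fold [11.1, 28.2] higher. Of the 91 Igfbp3 UMIs in the CCl4 cells, the mesenchymal panel would bring 45.6. The 437 Igfbp5 UMIs put endothelial-like cells at 100 CPM [91.1, 110], against 10.9 [5.81, 18.7] in macrophage and monocyte-like cells, and the part of free RNA from mesothelial-like cells, which held most of this transcript, was not tested. The large-vessel cluster, rich in Igfbp5, held 213 healthy cells and 1 CCl4 cell, so leaving it out changed almost only the healthy side. Igfbp5 was then 5.46-fold and Igfbp3 56.8-fold higher, a rise that follows from that removal. Over the CCl4 endothelial-like cells the upper quartile of Igfbp5 was 0 UMIs and the highest cell held 73. Whether large-vessel cells lay among the 642 CCl4 cells of cluster 7 was not tested. When each library was clustered on its own, Igfbp5 (1.69) and Igfbp7 (0.622) came within 2-fold and Igf1 was 4.18-fold higher. Igfbp1 went from 22 UMIs, fewer than free RNA would bring, to 0, which is within 2-fold against 3 counts (0.651) and lower in 3 alternatives (0.202 to 0.370). Igfbp4 (ratio 0.725), Igf1r (0.885), Igf1 and Igfbp6 stayed within 2-fold, beside a median log2 ratio over all genes of -0.34.

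In hepatocyte-like cells 7 members could be set side by side, of which 3 were lower and 2 higher, against 24.4% and 14% of 7784 genes. Igfbp1 went from 410 UMIs to 1, a ratio of 0.0136 [0.000344, 0.0763], Igfbp2 from 170 to 12.2 CPM (14.0-fold lower) and Igfbp4 from 847 to 276 CPM (3.07-fold lower), while Igf1 (687 and 460 CPM, ratio 0.670 [0.582, 0.770]) and Igfbp5 (46 and 7 UMIs, ratio 0.850) stayed within 2-fold. The classes were unlike in depth, with a median of 2891 UMIs per cell in the healthy and 893 in the CCl4 library, and 321 of the 329 CCl4 cells lay in the low-UMI cluster 5. The 20 hepatocyte markers were all counted in both libraries, at a sum of 93118 CPM in healthy and 29359 in CCl4 cells, while the mesenchymal markers came to 14.5 and 2486 CPM, and their part in the result was not tested. Compared within cluster 5 alone, with 131 healthy cells, Igfbp4 was 2.06-fold lower (505 and 245 CPM), the Igf1 ratio had an interval that held 1 (442 and 418 CPM, ratio 0.945 [0.726, 1.24]), and Igfbp1 and Igfbp2 had too few UMIs to compare (0 and 0, 13 and 4). The 2 members that were higher, Igfbp7 (5.39-fold) and Igfbp6 (12 UMIs in each library, 5.58-fold), came to 1.92 in that cluster and to too few UMIs to compare (4 and 12). In the CCl4 library the Igfbp7 UMIs were below what the mesenchymal panel would bring, as given above.

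In mesenchymal-like cells the healthy side was 23 cells with 161488 UMIs, of which 13 lay in the low-UMI cluster 9. Of 7 members, 1 was higher and 2 were lower, against 10.8% and 18.9% of 7225 genes. Igf1 was 22.3-fold [6.17, 184] higher, from 2 UMIs. Igfbp5 was lower (694 and 5.46 CPM, ratio 0.00788 [0.00627, 0.00995]), with its 112 healthy UMIs in 39.1% of the 23 cells and 64 of them in 1 cell. Without a mitochondrial limit its healthy level was 10.7 CPM and its ratio 0.441. Igfbp6 was 4.13-fold lower, from 12 UMIs in 13.0% of the cells, with 9 in 1 cell. Igfbp3 (1.56), Igfbp7 (1.27), Igfbp4 (1.15) and Igf1r (0.697) stayed within 2-fold. The first 3 of these turned to 6.97, 7.37 and 6.75 without that limit, and Igfbp6 came within 2-fold there (0.663).

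The other 33 genes of the IGF pathway were read in the same way. In mesothelial-like cells 7 of 29 that could be set side by side were higher and 5 lower, against 12.9% and 12.5% of all genes there. Pappa, which encodes the protease pappalysin that cuts IGFBP4 and IGFBP5, was 72.7-fold [41.5, 141] higher, from 12 UMIs (3.16 CPM) to 3736 (230 CPM), and by level it was highest in mesothelial-like cells among the named classes of the CCl4 library. Its inhibitor Stc1 went from 0 to 106 UMIs, and its relative Stc2 from 2 to 30 UMIs with a ratio interval that held 1 [0.888, 30.2]. Htra1, a further protease of binding proteins, went from 271 to 128 CPM (ratio 0.472). Grb10, an adaptor that dampens IGF1 receptor signals, was 3.27-fold higher, and the adaptor Irs1 was lower (ratio 0.297). The RNA binders Igf2bp1 (0.113) and Igf2bp3 (0.430) were lower and Igf2bp2 (2.79-fold) was higher. H19, the imprinted neighbour of Igf2, went from 0 to 28 UMIs.

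In hepatocyte-like cells 0 of 20 pathway genes were higher and 10 were lower, against 14% and 24.4% of all genes, beside the fall in the hepatocyte marker sum given above. Among the lower were Ghr, the growth hormone receptor (353 and 152 CPM, ratio 0.431 [0.336, 0.545]), Igfals, the acid-labile subunit that holds IGF1 and IGFBP3 in plasma (89.0 and 20.3 CPM, ratio 0.228 [0.108, 0.426]), Socs2, a feedback inhibitor induced by growth hormone (70.1 and 26.4 CPM), and the insulin receptor Insr (103 UMIs and 1). The intervals of Irs1, Irs2, Igf2r and Pik3ca, also counted as lower, held 1. Within cluster 5 alone Ghr stood at 316 and 154 CPM. Insr (1 UMI in each library) and Igfals (10 and 7 UMIs) had too few UMIs to compare there. The Socs2 ratio in that cluster had an interval that held 1 (0.471 [0.190, 1.18]). In endothelial-like cells 3 of 24 pathway genes were higher (Irs2, Grb10 and Stc1) and 3 lower (Igfals, Htra1 and Igf2bp3), against 5.91% and 18.9% of all genes. Igfals there went from 34 UMIs (1.63 CPM) to 1, and the part of free hepatocyte RNA in the healthy count was not tested. In mesenchymal-like cells 1 of 18 was higher (Jak2, from 1 UMI and with an interval that held 1) and 2 lower (Irs1 and Foxo1), against 10.8% and 18.9%. The median log2 ratio of the pathway genes was -1.06 in hepatocyte-like cells, beside -0.10 over all genes there, and lay between -0.16 and -0.03 in the other 3 classes, where that of all genes lay between -0.34 and -0.02.

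The genes most alike to a member were taken by Pearson's r of log2(CPM + 10) over 18 class by library units, among 7883 genes, as a description. Igfbp1 went with Cpn2 (r = 0.999), Mup21 and Mup9, Igfbp2 with Gm31583 (0.96) and Abcc2, Igfbp3 with Gucy1a1 (0.94), Ccbe1 and Col6a3, Igfbp5 with Bicdl1 (0.93) and Cpe, Igfbp6 with the mesothelial markers Rspo1 (0.93), Lrrn4 and Nkain4, and Igfbp7 with Tgfb1i1 (0.95). For Igfbp4 (Klf9, 0.85) and Igf1 (Atox1, 0.79) the closest gene was less alike. Units of 1 library share its depth and free RNA, and unlike cell classes make such values high.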

How the data were processed

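The authors deposited, per library, a matrix of UMI counts (whole numbers per gene and barcode, not normalized) of called cells. Per the file headers, Cell Ranger 3.1.0 wrote the healthy matrix (31053 genes) and 6.0.1 the CCl4 matrix (32285 genes). The headers name no genome build. The submitters' processing notes name GRCh38 and mm10, and the identifiers are mouse. Genes on both lists were matched by Ensembl identifier and held 99.9% and 99.6% of the UMIs. The 2 gene lists and versions differ between the libraries, which could move single genes.

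Cells with at least 500 UMIs, 200 genes and at most 30% mitochondrial UMIs were kept, and the highest Scrublet doublet scores were removed (277 healthy and 487 CCl4 cells, an expected 0.8% per 1000 cells). Both libraries were clustered together in scanpy 1.11.5 (2000 variable genes, 10 principal components, 20 neighbours, Leiden resolution 1, seed 1) without integration. A name needed at least 3 markers with 2-fold higher CPM than in all other cells and a UMI in 10% of cells, more than any other class. A cluster stayed unnamed where another list had as many, where its own markers among its 10 leading genes (at least 50 CPM) were fewer than 2 times those of another class, or where its depth was low against its library's median with no own marker among them. These limits of the naming rule were set after the data were seen, and names can differ from the study's. Globins were left out of the leading genes. Of the 8 listed erythroid markers, 2 were enriched in cluster 9. All 6 unnamed clusters were kept as such.

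UMIs were summed per class and library as CPM with exact Poisson intervals, shares were given exact binomial (Clopper-Pearson) intervals, and ratios exact conditional binomial intervals. UMIs are molecules, but cells of 1 library are not replicates, so no test of a difference between the libraries was made. A count of 0 was set to 3 counts for a ratio. The code that calls ratios was checked on simulated counts with known folds. All 10 members are named whatever their values, and pathway genes where they passed 2-fold or 50 CPM. The members and lists were chosen with earlier results of these data known. Alternatives were other limits, clusterings, scalings, edgeR 4.0.16 TMM factors, free-RNA subtraction and thinning. The genes most alike to Igf1r are not reported here.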

Additional observations from a re-analysis of the deposited data

Results flagged for a closer look

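Some members lay past 2-fold in opposite directions in different classes, with 1 library on each side, and the difference between classes was not tested. Igfbp5 was higher in CCl4 endothelial-like cells (ratio 2.98) and lower in mesothelial-like (0.0751) and mesenchymal-like cells (0.00788), a difference in log2 ratio of 5.31 and 8.56. The latter rests on 23 healthy mesenchymal-like cells, of which 1 held 64 of the 112 Igfbp5 UMIs, and the mesenchymal-like ratio was 0.441 without a mitochondrial limit. On the endothelial-like side 1 CCl4 cell held 73 of the 437 Igfbp5 UMIs. That ratio was 1.69, within 2-fold, when each library was clustered on its own. Igfbp4 was higher in mesothelial-like (2.95) and lower in hepatocyte-like cells (0.326), a difference of 3.18. Igfbp6 was higher in hepatocyte-like cells, with 12 UMIs in each library, and lower in mesothelial-like and mesenchymal-like cells, differences of 5.11 and 4.53. Igfbp7 was higher in hepatocyte-like cells, where its CCl4 UMIs were below those of the free-RNA panel, and lower in endothelial-like cells, a difference of 3.88.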

How the results depend on the processing

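No paired analysis was possible because each group had 1 library. The mesothelial-like calls for Igf1, Igf1r, Igfbp3, Igfbp4, Igfbp5 and Igfbp6 held in each alternative that gave a value. Igf1 gave none after background subtraction. The mesenchymal panel would bring more than the 538 Igf1 UMIs of the CCl4 cells, so the subtraction left none and the higher call was not kept there. Background subtraction used the hepatocyte panel in the healthy and the mesenchymal panel in the CCl4 library. It took no mesenchymal-panel background from the healthy cells, so the libraries were not treated alike and it cannot decide whether the call holds. Of the 9 members with at least 20 UMIs in a library, the class with the highest level was unchanged for 7 to 9 healthy and 7 to 9 CCl4 members. The healthy Igfbp7 lead passed to endothelial-like cells under 4 alternatives, and with 30 principal components fewer than 20 CCl4 hepatocyte-like and healthy mesenchymal-like cells were named. The number of members higher in hepatocyte-like cells (2) was 0 with a mitochondrial limit of 10% and in the low-UMI cluster alone, and 1 with at least 1000 UMIs per cell, Leiden resolution 2 or background subtraction, and the number lower (3) was 1 in the low-UMI cluster. In mesenchymal-like cells 4 members were higher without a mitochondrial limit or with each library clustered on its own, against 1. In endothelial-like cells 1 was lower, against 2, after background subtraction or without genes at 0 in one library. Reversed ratios in hepatocyte-like cells were those of Igfbp7 with the 10% limit (0.855) and after background subtraction (0.0578), and of Igfbp6 without doublet removal (0.562). The hepatocyte-like Igfbp5 ratio (0.850) was 0.202 to 0.349 with at least 1000 UMIs per cell, without doublet removal or at Leiden resolution 2. The cause was not tested. The alternatives that took the low-UMI cluster alone, left out the large-vessel cluster or added the Serpinb2-led cluster were chosen after seeing the data. The mesothelial-like Igfbp7 ratio (1.80) was 0.224 after background subtraction and 2.002 without the 50 most abundant genes, and the mesenchymal-like Igfbp5 ratio (0.00788) was 0.441 without a mitochondrial limit. The 23 healthy mesenchymal-like cells and the shallow hepatocyte-like cells limit what can be seen in both classes.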
